A study of Mus musculus with 4 samples.

Results

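The genes of MHC class I antigen presentation were examined in hippocampal RNA of wild-type (WT) and Lsd1 knock-in (KI) mice. They are 10 genes chosen by name, with earlier results of these data known, of the 26328 genes listed in at least 1 sample. These are H2-K1, H2-D1, H2-T23, B2m, Tap1, Tap2, Tapbp, Psmb8, Psmb9 and Nlrc5, and all 10 were matched to 1 Ensembl gene each. RNA-seq was performed on 2 WT and 2 KI samples of hippocampus from males of the C57BL/6 strain, given no treatment in the labels. LSD1, encoded by Kdm1a, is a histone demethylase, and in the KI mice the serine that PKCα phosphorylates is replaced by alanine on both alleles. The labels give the males of the behavioural experiments an age of 8 to 15 weeks and give no age for the RNA samples. They number the samples as replicates without saying whether each is 1 mouse or a pool, so p-values measure the spread between these samples, which may be partly technical.

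MHC class I molecules carry peptides from inside the cell to its surface, where CD8 T cells inspect them. The proteasome cuts proteins into peptides, and interferon-induced catalytic subunits, among them Psmb8 and Psmb9, replace the constitutive ones to form the immunoproteasome. Tap1 and Tap2 together pump the peptides into the endoplasmic reticulum, where tapasin (Tapbp) holds an empty class I molecule next to the pump until a peptide fits. Each class I molecule pairs a heavy chain (H2-K1, H2-D1 or the non-classical H2-T23) with the light chain β2-microglobulin (B2m), and Nlrc5 is the transactivator of these genes. In the brain, class I genes are expressed by microglia, endothelium and neurons, at levels that interferon raises, and they are also known for a part in synapse remodelling.

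The sequences in front of the chain genes and of the peptide pump are shown because these are the genes whose levels are compared here and class I promoters are a textbook case of shared control elements. RefSeq (GRCm38.p6) gave a window of 250 bases before to 50 bases after the start for 8 of the 10 genes, and Tap2 and Nlrc5 had no entry. Capitals mark 3 motifs searched on both strands, the interferon response core (GAAA repeated after any 2 bases), the NF-kB consensus, and CCAAT. Matches of different motifs did not overlap in these windows. H2-K1 had 2 entries that differ in their start, and the first listed is printed.
B2m (chr2:122147437-122147736, plus strand): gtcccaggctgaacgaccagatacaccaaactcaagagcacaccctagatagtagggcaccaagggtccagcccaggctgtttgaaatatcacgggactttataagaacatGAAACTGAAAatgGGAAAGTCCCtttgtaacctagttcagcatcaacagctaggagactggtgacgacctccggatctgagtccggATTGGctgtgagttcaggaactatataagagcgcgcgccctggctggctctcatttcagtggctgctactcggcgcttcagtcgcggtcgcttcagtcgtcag
H2-K1 (chr17:34000298-34000597, minus strand): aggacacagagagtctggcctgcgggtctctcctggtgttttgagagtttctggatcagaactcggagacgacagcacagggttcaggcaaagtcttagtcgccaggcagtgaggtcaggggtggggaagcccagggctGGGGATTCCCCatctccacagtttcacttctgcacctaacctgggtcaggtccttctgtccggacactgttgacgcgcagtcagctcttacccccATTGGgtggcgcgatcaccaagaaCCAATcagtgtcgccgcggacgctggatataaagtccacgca
H2-D1 (chr17:35262844-35263143, plus strand): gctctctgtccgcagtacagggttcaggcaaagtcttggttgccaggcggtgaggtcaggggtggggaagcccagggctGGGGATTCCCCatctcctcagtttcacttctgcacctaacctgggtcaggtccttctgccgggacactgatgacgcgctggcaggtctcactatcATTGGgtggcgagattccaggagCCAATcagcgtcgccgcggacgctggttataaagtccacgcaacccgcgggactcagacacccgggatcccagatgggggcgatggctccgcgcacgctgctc
H2-T23 (chr17:36032652-36032951, minus strand): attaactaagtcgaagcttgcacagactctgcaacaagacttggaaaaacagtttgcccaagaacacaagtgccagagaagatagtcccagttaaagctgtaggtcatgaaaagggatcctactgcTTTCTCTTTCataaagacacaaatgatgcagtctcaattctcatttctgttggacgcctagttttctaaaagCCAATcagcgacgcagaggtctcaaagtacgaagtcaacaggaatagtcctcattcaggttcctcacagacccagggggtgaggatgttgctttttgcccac
Tap1 (chr17:34187306-34187605, plus strand): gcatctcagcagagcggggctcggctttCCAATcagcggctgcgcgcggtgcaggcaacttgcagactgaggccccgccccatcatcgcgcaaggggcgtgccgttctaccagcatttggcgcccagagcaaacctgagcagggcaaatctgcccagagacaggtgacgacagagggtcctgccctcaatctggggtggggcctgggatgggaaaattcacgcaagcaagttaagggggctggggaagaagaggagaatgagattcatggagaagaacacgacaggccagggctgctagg
An exact match of the interferon response core occurred in B2m, with its first base 139 bases before the start, and in H2-T23, 124 bases before it on the other strand, against 3.44% of the 32851 promoter windows in the table. Variants of the motif letters were not searched in any window, so a window without a match may still hold a variant element. The NF-kB consensus occurred in B2m, 126 bases before the start, and in H2-K1 and H2-D1, where overlapping matches began 111 and 171 bases before it, against 4.51% of all windows. CCAAT, the letters of the Y box, occurred at any position in all 8 windows but that of Psmb8, against 37.4% of all windows. The interferon-γ element TTCNNNGAA occurred in the window of Psmb8 and in none of the other 7, against 8.3% of all windows. The H2-K1 and H2-D1 windows had 71.3% of their bases identical when aligned, each on its own strand, and the other pairs had between 49.3% and 58.3%. Psmb9 and Tap1 are transcribed away from each other, and their windows share 275 bases on opposite strands. Their CCAAT matches are the same site, and the aligned identity of this pair does not reflect the shared bases.

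Mapped reads numbered about 13410000 for WT replicate 1, 8830000 for WT replicate 2, and for the KI pair 14380000 and 14950000. Values are RPKM, read numbers divided by exon length and by the mapped reads of the sample, so levels of different genes are compared per length. Whole numbers of reads could be worked out behind the RPKM of every gene. The sources used here do not state whether the counted unit was a read or a read pair, and it is called a read throughout. Kdm1a was at 11.6 and 11.2 RPKM in WT and 11 and 11.2 RPKM in KI, which does not test the labels, since the KI allele changes 1 codon. The 8 hippocampal neuron markers ran from 10.1 RPKM (Grik4 in KI replicate 2) to 129 RPKM (Neurod6 in KI replicate 1). Of these, Prox1 and C1ql2 were lower in both KI samples than in either WT sample. The choroid plexus marker Ttr stood apart in KI replicate 1, at 51.3 RPKM against 8.13, 13.8 and 8.89 RPKM in the other samples.

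The light chain, all 3 heavy chains and tapasin had higher RPKM in each KI sample than in either WT sample, by 1.28-fold to 1.53-fold in mean RPKM. The 2 pump subunits, the 2 immunoproteasome subunits and Nlrc5 had overlapping groups. Thus 5 of the 10 genes had both KI values above both WT values and 0 had both below, where 24% and 18.1% of the 18436 genes tested did. The 5 also had a ratio of means of at least 1.2, as did 9.85% of the genes tested. For any single gene this ordering gives the smallest p an exact two-sided permutation test of 2 against 2 samples allows, 0.333. Groups were compared with limma on log2(RPKM + 1) of genes that reached 0.5 RPKM in 2 or more samples. A gene was called changed when its Benjamini-Hochberg adjusted p was under 0.1 and its fold change 1.2 or more. Of the 10 genes 8 were tested, Psmb9 and Nlrc5 lying below the filter. In limma 0 of the 8 were called, as were 0.0% of all genes tested. At an unadjusted limma p under 0.05, 4 of the 8 were higher in KI (B2m, Tapbp, H2-D1 and H2-T23) and 0 lower, where 6.3% and 3.33% of all genes tested were. Without WT replicate 1, and likewise without WT replicate 2, 2 of the 8 were (B2m and Tapbp). The median log2 fold change of the 8 was 0.34, and that of all genes tested was 0.01. Without KI replicate 2 the median of the 8 was 0.21. The 10 genes were chosen with earlier results of these samples known. These counts and medians are therefore not independent evidence of a direction. In bulk RNA, more cells of a type and more RNA per cell cannot be told apart.

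**Figure D1:**
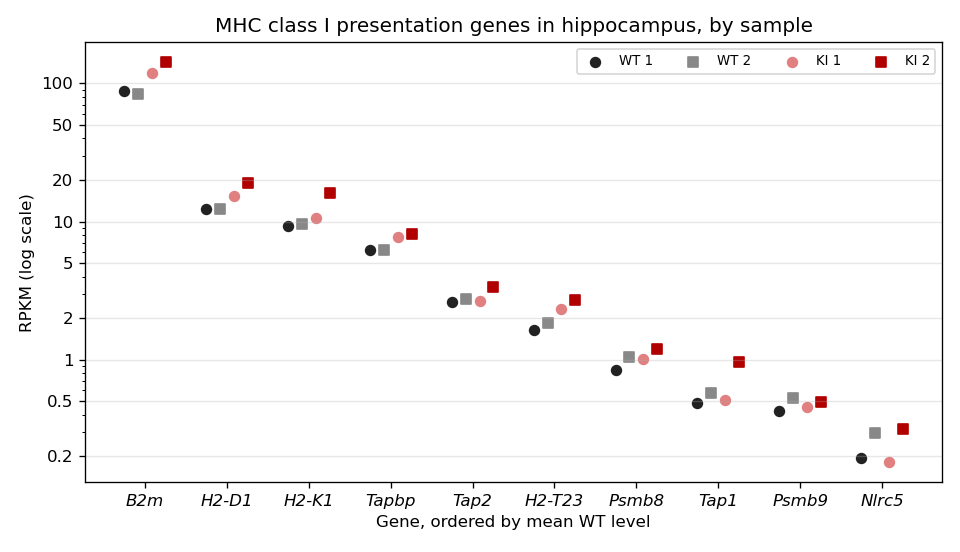
RPKM on a log scale (vertical axis) of the 10 genes (horizontal axis, ordered by mean WT level) in each of the 4 samples, with 1 point per sample (black and grey WT, light and dark red KI). B2m lies between 83.6 and 142 RPKM and Nlrc5 between 0.182 and 0.315 RPKM, and in B2m, H2-D1, H2-K1, Tapbp and H2-T23 both red points lie above both WT points.

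B2m, the light chain, was by far the most abundant of the 10. It was at 87.5 and 83.6 RPKM in WT and 119 and 142 RPKM in KI, on 1009, 635, 1475 and 1831 reads. Both KI samples lay above both WT samples, KI replicate 2 highest. The WT mean was 85.5 ± 2.7 RPKM and the KI mean 131 ± 16.4 RPKM (SD over 2 samples in each group). This did not pass the adjusted threshold, with a log2 fold change of 0.60 (standard error 0.10, 95% confidence interval 0.35 to 0.85, adjusted p = 0.307 from limma). B2m lies on chromosome 2 (122147686 to 122153083 in GRCm38), apart from the MHC on chromosome 17 and from Kdm1a on chromosome 4.

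H2-D1 encodes a classical heavy chain, 1 of the 2 of this strain. It was at 12.4 RPKM in both WT samples and at 15.2 and 19.0 RPKM in KI, on 429, 282, 565 and 732 reads. The WT samples had an SD of 0.00968 RPKM, and both KI samples lay above them. The log2 fold change of H2-D1 was 0.43 (standard error 0.11, 95% confidence interval 0.13 to 0.72, adjusted p = 0.435 from limma). The other classical chain, H2-K1, was at 9.35 and 9.56 RPKM in WT and at 10.6 and 16 RPKM in KI, on 327, 220, 398 and 624 reads. KI replicate 1 lay just above the WT samples, at 1.12 times their mean, and KI replicate 2 at 1.69 times. Its log2 fold change was also 0.43 but with a standard error of 0.19 and a 95% confidence interval of -0.07 to 0.93 (adjusted p = 0.556 from limma). Without KI replicate 2 it was 0.15 and without KI replicate 1 it was 0.70.

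H2-T23 encodes Qa-1, the non-classical chain read by NK cell receptors. It was at 1.65 and 1.84 RPKM in WT and at 2.33 and 2.73 RPKM in KI, on 64, 47, 97 and 118 reads. All 3 heavy chains thus had the same order of groups, and the ratio of mean RPKM was 1.45 for H2-T23, 1.38 for H2-D1 and 1.41 for H2-K1. On the log2(RPKM + 1) scale, which understates the change of low genes, H2-T23 had a log2 fold change of 0.36 (standard error 0.11, 95% confidence interval 0.07 to 0.65, adjusted p = 0.483 from limma). Class I chains are close copies of each other, and only uniquely mapped pairs were counted. At the read length, 0 of the 4377 windows of the H2-K1 transcripts, 1.31% of those of H2-D1 and 0.301% of those of H2-T23 occur in a transcript of another gene, which bears on exact copies and not on near copies.

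The ratio of the light chain to the 3 heavy chains among the members was compared per sample, since the chains pair 1 to 1. The RPKM of the 3 heavy chains summed to 23.4 and 23.8 in WT and to 28.2 and 37.7 in KI. B2m was 3.74 and 3.52 times this sum in WT and 4.23 and 3.78 times in KI. The groups do not overlap, but KI replicate 2 was only just above WT replicate 1. This sum leaves out the other class I chains described below, which together had 22.9 and 22.4 RPKM in WT. The ratio thus covers only part of the heavy-chain RNA, and the near tie holds for these 3 chains only. A ratio of B2m to all class I chains was not tested. H2-D1 was 1.33 and 1.30 times H2-K1 in WT and 1.44 and 1.19 times in KI, with WT inside the KI range.

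Tapasin (Tapbp), the chaperone of peptide loading, had the smallest standard error of the 5 separated genes. It was at 6.26 and 6.19 RPKM in WT and at 7.76 and 8.14 RPKM in KI, on 277, 180, 368 and 401 reads. The KI samples lay 1.25 and 1.31 times above the WT mean, close to each other. Its log2 fold change was 0.31 (standard error 0.07, 95% confidence interval 0.13 to 0.48, adjusted p = 0.371 from limma). An antisense gene, Gm19412, overlaps 24.9% of the exon length of Tapbp in GENCODE M21, and the kit does not mark strand, so reads of both cannot be told apart there. The same holds for 14.7% of the exon length of Psmb8 (antisense Gm20496) and 14.1% of that of Tap2 (antisense Gm15821).

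The pump subunits were lower and did not separate. Tap1 was at 0.490 and 0.579 RPKM in WT and at 0.508 and 0.965 RPKM in KI, on 36, 28, 40 and 79 reads. KI replicate 1 fell between the WT samples, while KI replicate 2 was 1.80 times the WT mean, the highest ratio of any of the 10 genes. The log2 fold change of Tap1 was 0.17 (95% confidence interval -0.30 to 0.63, adjusted p = 0.796 from limma), and -0.02 without KI replicate 2. At this low level the log2(RPKM + 1) scale understates the change, and the ratio of mean RPKM was 1.38. In the limma-voom fit described below the log2 fold change was 0.42 (95% confidence interval -0.24 to 1.07). Tap2 was at 2.64 and 2.76 RPKM in WT and at 2.67 and 3.36 RPKM in KI, on 134, 92, 145 and 190 reads. It had the same pattern at a smaller size, with KI replicate 1 among the WT samples. The log2 fold change of Tap2 was 0.11 (95% confidence interval -0.20 to 0.42, adjusted p = 0.793 from limma), and -0.01 without KI replicate 2. Tap2 was 5.39, 4.76, 5.25 and 3.48 times Tap1 in the order WT 1, WT 2, KI 1 and KI 2, lowest where Tap1 was high.

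Psmb8 and Psmb9 were rare beside their constitutive counterparts. Psmb8 was at 0.845 and 1.04 RPKM in WT and at 1.02 and 1.2 RPKM in KI, with read numbers from 25 to 49 and a log2 fold change of 0.12 (95% confidence interval -0.21 to 0.45, adjusted p = 0.793 from limma). KI replicate 1 lay just under WT replicate 2, so the groups overlapped. As a share of Psmb5, the subunit it replaces, Psmb8 was 1.61% and 1.93% in WT and 2.15% and 2.35% in KI, and on this ratio the groups do not overlap. Psmb5 itself was lower in both KI samples, at 47.2 and 50.9 RPKM against 52.4 and 53.6 RPKM in WT. Psmb9 was at 0.428 and 0.526 RPKM in WT and at 0.456 and 0.494 RPKM in KI, on 17 to 27 reads, with both KI samples inside the WT range. It was 1.74% and 1.87% of Psmb6 in WT and 1.76% and 1.67% in KI. The ratio of mean RPKM was 1.0 for Psmb9, which was not tested. Psmb9 and Tap1 share 212 bases of exon on opposite strands.

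Nlrc5, the transactivator, was the lowest of the 10. It was at 0.195 and 0.296 RPKM in WT and at 0.182 and 0.315 RPKM in KI, on 20 reads in each of the first 3 samples and 36 in KI replicate 2. The KI samples took both ends of the range, and the ratio of means was 1.01, with no test.

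In the order of WT levels, B2m was followed by H2-D1, H2-K1, Tapbp, Tap2, H2-T23, Psmb8, Tap1, Psmb9 and Nlrc5. Neighbours in this order did not overlap between the 2 WT samples except Tap1 and Psmb9. In KI the ranges of H2-D1 and H2-K1 overlapped, as did those of Tap2 and H2-T23.

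KI replicate 2 was above KI replicate 1 in all 10 genes, where it was above in 52.0% of all genes tested. Its ratio to the WT mean ran from 1.03 in Psmb9 to 1.80 in Tap1, and that of KI replicate 1 from 0.74 in Nlrc5 to 1.39 in B2m. B2m, H2-T23, Tapbp and H2-D1 were at least 1.2 times the WT mean in each KI sample, and H2-K1 was not.

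**Figure D2:**
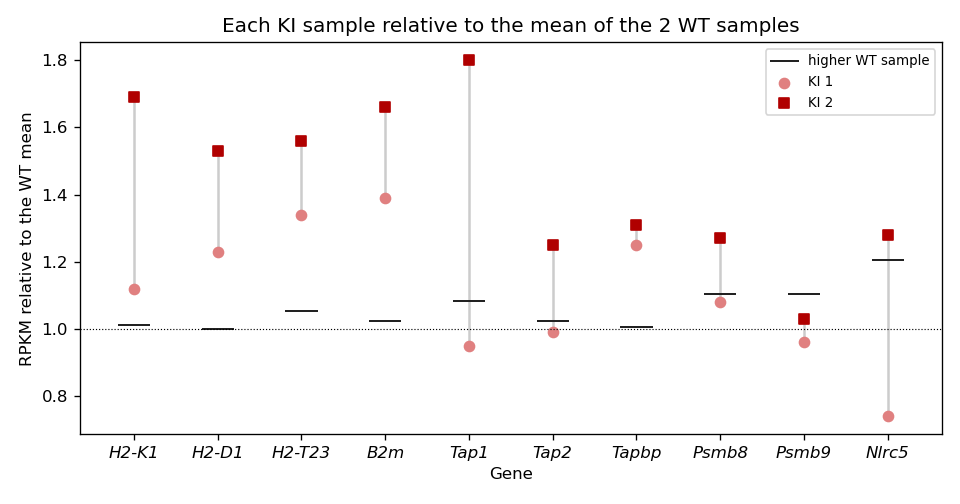
RPKM of each KI sample divided by the mean of the 2 WT samples (vertical axis) for the 10 genes (horizontal axis), with black bars at the higher WT sample and a dotted line at 1. KI 2 (squares) is above KI 1 (circles) in every gene, and KI 1 is above the higher WT sample in the 3 heavy chains, B2m and Tapbp and below it in the other genes.

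The whole reads behind the RPKM allowed a second fit, limma-voom, which weights each value by its read depth and was added after the data were seen. It called 2 of the 8 genes, both higher in KI, where 0.857% of all genes tested were called higher. These were B2m, with a log2 fold change of 0.60 (95% confidence interval 0.43 to 0.78, adjusted p = 0.00668 from limma-voom), and H2-D1, with 0.46 (0.24 to 0.68, adjusted p = 0.0676 from limma-voom). Tapbp had an adjusted p of 0.137, H2-K1 of 0.210 and H2-T23 of 0.257 in the same fit. Without WT replicate 1 or without WT replicate 2, 0 of the 8 were called, while the log2 fold changes were 0.64 and 0.58 for B2m and 0.46 in both cases for H2-D1. Without KI replicate 2 the log2 fold changes were 0.48 for B2m and 0.30 for H2-D1, and without KI replicate 1 they were 0.73 and 0.61. With replicate number as a block this fit called 3 of the 8 genes, B2m, H2-D1 and H2-K1. The block fit called 452 of the 18436 genes tested, on 1 residual degree of freedom.

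**Figure D3:**
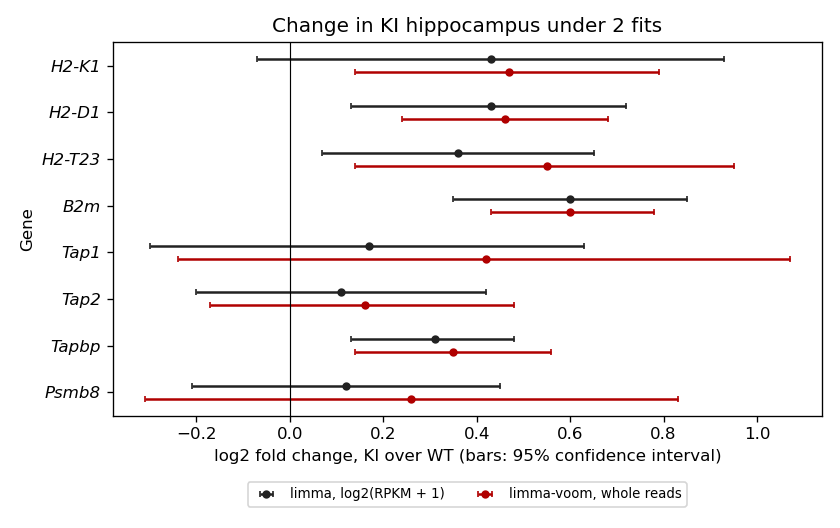
Log2 fold change of KI over WT (horizontal axis) for the 8 genes tested (vertical axis), with 95% confidence intervals, from limma on log2(RPKM + 1) in black and from limma-voom on whole reads in red. The intervals of B2m, H2-D1, H2-T23 and Tapbp lie above 0 in both fits, that of H2-K1 only in red, and those of Tap1, Tap2 and Psmb8 in neither.

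The remaining genes of the pathway were read from fixed lists, and limma called 0 genes of any of the 12 lists. For comparison with the list counts, 24% of all genes tested had both KI values above both WT values and 18.1% both below. Of the 3 other inducible proteasome parts, all had both KI values above both WT values. Psme2, a subunit of the proteasome activator PA28, was at 1.10 and 1.03 RPKM in WT and at 2.29 and 2.35 RPKM in KI, a log2 fold change of 0.69 (adjusted p = 0.307 from limma and 0.0909 from limma-voom). Its partner Psme1 had a log2 fold change of 0.16, and Psmb10, the inducible counterpart of Psmb7, one of 0.28. Psmb10 made up a larger share of its counterpart than Psmb8 or Psmb9. It ran from 19.4% of Psmb7 in WT replicate 2 to 25.9% in KI replicate 1. Of the 6 genes of peptide loading and trimming, 3 were higher in both KI samples, the endoplasmic reticulum chaperones Calr, Canx and Pdia3, with log2 fold changes of 0.19, 0.11 and 0.22. The other 3, Tapbpl, Erap1 and Lnpep, had 0.08, 0.01 and -0.03 and overlapped. Of the 14 constitutive core proteasome subunits, 3 had both KI values above and 4 both below the WT values, with a median of 0.05, and Psma5, Psmb3 and Psmb2 had the largest values, 0.21, 0.17 and -0.12.

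Of 20 other class I chains, 16 were listed and 10 tested, 2 of them with both KI values above and 1 with both below, and their median was 0.08. H2-Q4 was at 2.33 and 2.14 RPKM in WT and at 2.54 and 3.68 RPKM in KI, with KI replicate 2 again highest. H2-M3 had a log2 fold change of 0.26 and Mr1, which presents vitamin metabolites, one of -0.21. The class II presentation genes were mostly below the filter, with 4 of 10 tested and a median of 0.01. Cd74, the invariant chain, had both KI values above both WT values, at 1.82 and 1.23 against 0.634 and 0.803 RPKM. Ciita, the class II counterpart of Nlrc5, had a log2 fold change of -0.11 and H2-Eb1 one of 0.04.

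Among 23 genes of class I transcription and interferon signalling, 22 were tested, with 6 higher and 4 lower in both KI samples and a median of 0.03. Irf9 and Stat2, which act in type I interferon signalling, had log2 fold changes of 0.48 and 0.28, each higher in both KI samples. The limma-voom fit called Irf9 (adjusted p = 0.0796) and did not call Stat2 (adjusted p = 0.145). Of 15 interferon-stimulated genes, 14 were tested, and 12 of them had both KI values above both WT values, with a median log2 fold change of 0.57. Their summed RPKM was 31.5 and 30.7 in WT, 46.1 in KI replicate 1 and 65.5 in KI replicate 2, and KI replicate 2 was above KI replicate 1 in 14 of 14, as in the class I genes. The largest were Irf7, Ifit3 and Bst2, with log2 fold changes of 0.89, 0.86 and 0.81. This list was written with earlier results of these samples known and is not independent evidence of its direction.

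**Figure D4:**
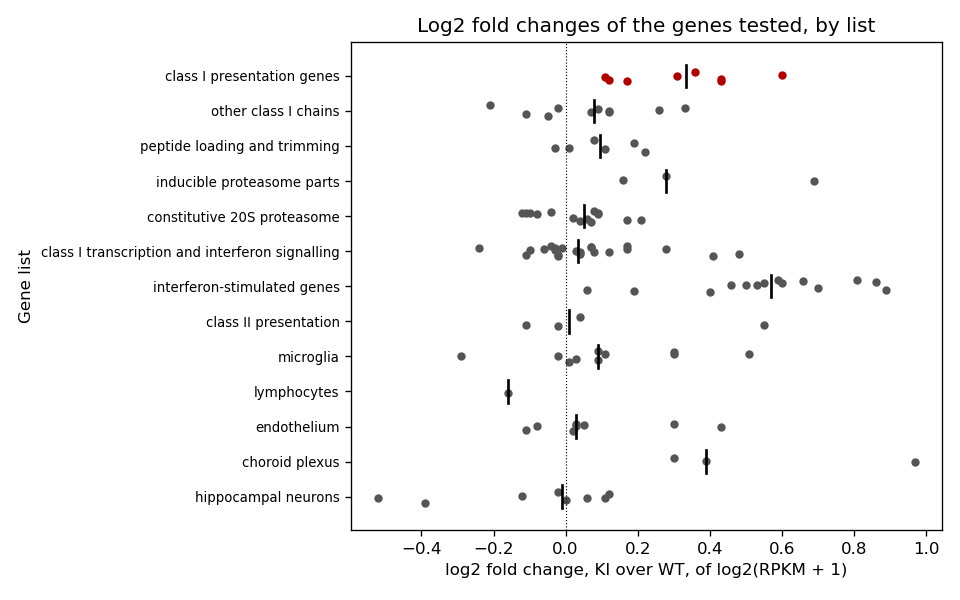
Log2 fold change of KI over WT on the log2(RPKM + 1) scale (horizontal axis) of the genes tested in each list (vertical axis), with 1 point per gene and a black bar at the median. The 8 class I presentation genes (red) lie between 0.11 and 0.60 and the interferon-stimulated genes between 0.06 and 0.89. The medians of the constitutive proteasome, signalling, class II and endothelium lists are at or under 0.05. Those of the inducible proteasome and choroid plexus lists, with 3 genes tested in each, are 0.28 and 0.39.

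Of the 10 genes, 8 lie in a stretch of 2.12 Mb of the MHC on chromosome 17 (33915899 to 36032855 in GRCm38). The stretch holds 117 other tested genes that are no H2 gene. Of these, 39 (33.3%) had both KI values above both WT values and 18 both below. Among all genes tested, 24% had both above and 18.1% both below. The median log2 fold change of the 117 was 0.05, and that of all genes tested was 0.01.

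Markers of cells that could bring class I RNA were summed in each sample, and their part in the differences was not tested. Of 10 microglia markers 4 were higher and 1 lower in both KI samples, and their summed RPKM was 136 in both WT samples and 155 and 150 in KI. Without C1qa the microglia sum was 108 and 107 RPKM in WT and 116 and 107 RPKM in KI, and KI replicate 2 no longer stood apart. The largest in this list were C1qa, Tmem119 and Aif1, with log2 fold changes of 0.51, 0.30 and 0.30. C1qa lies on chromosome 4, as does Kdm1a, and whether this bears on its level was not tested. P2ry12 was at 11.4 RPKM in KI replicate 2 against 15.5 to 16.8 RPKM in the other samples. The endothelium markers summed to 65.1 and 73.0 RPKM in WT and to 74.9 and 82.4 RPKM in KI, with 4 of 8 higher and 2 lower in both KI samples. Without Ly6c1 they summed to 44.3 and 50.5 RPKM in WT and to 48.4 and 49.4 RPKM in KI, and the groups overlapped. The largest were Ly6c1, Pecam1 and Kdr, with log2 fold changes of 0.43, 0.30 and -0.11. Of 12 lymphocyte markers 9 were listed and 1 tested, Trac, which was lower in both KI samples, and Cd3e, Cd3g and Ms4a1 were listed in no sample. Cd8a was at 0.0714 RPKM in WT replicate 1, at 0.0222 RPKM in KI replicate 1 and not listed in the other 2 samples. The choroid plexus markers, of which 1 of the 3 tested was higher in both KI samples, summed to 14.3 and 19.9 RPKM in WT, 60.6 in KI replicate 1 and 17 in KI replicate 2. Without Ttr they summed to 6.21 and 6.09 RPKM in WT and to 9.36 and 8.07 RPKM in KI, so both KI samples were then above both WT samples. Most of this sum was Kl, at 4.87 and 5.14 RPKM in WT and 7.05 and 6.72 RPKM in KI. Of the rest, Aqp1 lay below the filter and was higher in both KI samples, while Folr1, Clic6 and Kcne2 overlapped. Of 8 hippocampal neuron markers, 1 was higher and 2 lower in both KI samples, the lower ones being the dentate gyrus markers Prox1 and C1ql2 with log2 fold changes of -0.52 and -0.39, both called lower by limma-voom. That fit also called higher C1qa, the choroid plexus marker Kl and 5 interferon-stimulated genes. Wfs1, a CA1 marker, ran from 28.6 RPKM in KI replicate 1 to 50.9 RPKM in KI replicate 2.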

How the data were processed

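Poly(A) RNA of 2 WT and 2 KI hippocampal samples was sequenced. The authors aligned the read pairs to mm10 with GSNAP (per the labels), used the pairs that mapped uniquely and properly, and deposited RPKM per gene of Ensembl release 74, with 1 file per sample. Genes without reads were not listed and were given 0. The counting tool and its use of strand are not given in the sources used here.

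Symbols matched 97.7% of the gene IDs. Whole reads were worked out from ratios between samples (all 26328 genes whole within 0.0001), with GENCODE M21 exon lengths (GRCm38, the build of mm10) setting the scale. limma (version 3.58.1, R 4.3.3) with a mean-variance trend was fitted to log2(RPKM + 1) of all genes that reached 0.5 RPKM in 2 or more samples and was tested on simulated data. The study's own count test was not run here. The limma-voom fits, and the marker sums without 1 gene, were added after the data were seen. Python 3.11.15 with pandas 2.3.3 served for the rest. Promoters come from RefSeq. Motif and shared-sequence counts are descriptions.

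The members and lists were chosen with earlier results of these data known. All 10 members and Kdm1a are named, with the genes of the 3 largest log2 fold changes of each list, further genes of lists of 6 or fewer, and the 5 genes closest in profile. A few other genes (Neurod6, Grik4, P2ry12, Cd8a, Cd3e, Cd3g and Ms4a1) were named after their values were seen. A gene that this rule takes in is not reported here.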

Additional observations from a re-analysis of the deposited data

How the results depend on the processing

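The count of genes called by limma was 0 under every other pseudocount, filter, scaling, threshold or left-out sample tried, except with no mean-variance trend, which called 20 (17 higher, 3 lower), none of them a class I gene. The added limma-voom fit called 215 genes (158 higher, 57 lower) and 2 class I genes, and from 1 to 889 genes and from 0 to 6 class I genes as each sample was left out. It called 1 gene without WT replicate 1, 2 without WT replicate 2, 527 without KI replicate 1 and 889 without KI replicate 2. Without either WT library B2m and H2-D1 were no longer called, though their limma-voom log2 fold changes were 0.64 and 0.58 for B2m and 0.46 and 0.46 for H2-D1. The number of class I genes higher at an unadjusted limma p under 0.05, 4 of 8 with all samples, ran from 2 to 5 with a sample left out, and their median log2 fold change from 0.21 to 0.40, both checked after the data were seen. Samples share replicate numbers, but deviations of like-numbered samples had a correlation of -0.025 over 18436 genes, and nothing in the labels pairs them. With the replicate block limma called 0 genes, and limma-voom called 452 and 3 class I genes, on 1 residual degree of freedom. Why the fits differ was not tested. Of 135 values of the class I genes under alternatives, 118 kept direction and side of the threshold, 13 passed it, all in limma-voom, and 4 reversed, all without KI replicate 2. These were Tap1 at -0.02 and Tap2 at -0.01 in limma, and -0.05 and -0.01 in limma-voom. With each sample left out in limma, the log2 fold change ran from 0.47 to 0.73 in B2m, 0.28 to 0.58 in H2-D1, 0.15 to 0.70 in H2-K1, 0.28 to 0.44 in H2-T23, 0.28 to 0.34 in Tapbp, -0.02 to 0.36 in Tap1, -0.01 to 0.24 in Tap2 and 0.05 to 0.19 in Psmb8. The count of genes with both KI values above both WT values was 5 with median scaling and from 5 to 9 with a sample left out, which is larger by construction. A sample left alone in its group is assumed to vary like the other. The values of Nlrc5, Psmb9, Psmb8 and Tap1 rest on at most 79 reads per sample.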

Other observations

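The genes whose profile over the 4 samples was closest to that of the class I genes were sought among 16074 other genes with a mean of at least 1 RPKM. The measure was the Euclidean distance of centred log2(RPKM + 1), and the mean centred profile of the 8 tested class I genes was -0.18, -0.14, 0.03 and 0.29 in WT 1, WT 2, KI 1 and KI 2. The closest were Robo3 (distance 0.0313), Mrm2 (0.0408), Gm20634 (0.0498), Gm8615 (0.052) and Proca1 (0.0524), on chromosomes 9, 5, 3, 5 and 11. Robo3, an axon guidance receptor, was at 8.93 and 9.34 RPKM in WT and at 10.3 and 12.5 RPKM in KI, and 0 of the 5 were called by limma (lowest adjusted p = 0.490). With 4 samples many genes take a like profile, and the list is a description.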
